A study of Mus musculus with 12 samples.

Results

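The antigen presentation genes described here are 10 genes chosen by name from the deposited table of liver transcripts. They are H2-Aa, H2-Ab1, H2-Eb1, H2-DMa, Cd74 and Ciita of the MHC class II pathway, and H2-K1, H2-D1, B2m and Tap1 of the MHC class I pathway. They are 10 of 24296 gene symbols, and 39 of the 82136 transcripts with a symbol belong to them. RNA of 12 livers of male C57/BL6N mice was sequenced, with 3 livers in each of 4 groups. The control group is labelled WT, with no treatment named. The model group was given carbon tetrachloride (CCl4), a liver toxin that causes fibrosis, over 8 weeks, with 2 injections a week of 5 mL/kg of a solution of 1 part CCl4 in 9 parts olive oil. The silibinin group and the phloridzin group received the same CCl4, with the drug from week 5. Silibinin is a flavonolignan of milk thistle used in liver disease, and phloridzin is a glucoside of phloretin that inhibits sodium-glucose transporters. The phloridzin livers came from the high-dose arm. What the control mice were injected with is not given in the labels.

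MHC molecules carry peptides to the cell surface, where T cells read them. Class II molecules are pairs of an alpha and a beta chain, made mainly by dendritic cells, macrophages and B cells, and carry peptides from engulfed proteins to CD4+ T cells. Class I molecules are made by nearly all nucleated cells, hepatocytes included, and carry peptides from the cell's own proteins to CD8+ T cells. Interferon-gamma is known to raise the genes of both pathways, with Ciita as the coactivator for class II and Nlrc5 for class I.

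Of the 10 genes, 7 lie in the MHC on chromosome 17, between H2-K1 (chr17:33996017-34000347) and H2-D1 (chr17:35262730-35267499) in build GRCm38. H2-Ab1 (chr17:34257689-34269419), H2-Aa (chr17:34282744-34287823) and H2-Eb1 (chr17:34305867-34316674) are neighbours there, and Tap1 (chr17:34187553-34197225) and H2-DMa (chr17:34119541-34139101) lie beside them. B2m is on chromosome 2 (chr2:122147686-122153083) and Ciita on chromosome 16 (chr16:10480059-10528418), and Cd74 lies on a further chromosome. All 10 are protein-coding genes.

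Values are FPKM, the fragments found per kilobase of a transcript, scaled to library size and summed over the transcripts of a gene. Libraries held 105 to 109.6 M fragments in the control group, 83.7 to 101 M in the model group, 107 to 111 M in the silibinin group and 98.5 to 105 M in the phloridzin group. Behind the lowest gene, Ciita, stood 66 to 943 fragments per liver, and behind H2-Aa 835 to 4098. The hepatocyte markers summed to 16616 to 33878 FPKM per liver, with Alb (albumin) the most abundant, and none of the 6 was at 0. Phloridzin liver 1 stood apart from its group before any comparison. Its genes differed from the mean of the other phloridzin livers by 0.43 on average on the log2 scale, and this distance lay between 0.27 and 0.34 in the other 11 livers. Many results that rest on it are given with and without it, and others only with it.

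Over the 12 livers, B2m was the most abundant of the 10 genes at 711 ± 153 FPKM (mean ± SD), before H2-K1 at 398 ± 59.6 and H2-D1 at 129 ± 50.9. Cd74 followed at 33.6 ± 15.2, H2-Aa at 22.2 ± 9.49, H2-Eb1 at 17.6 ± 7.66 and H2-Ab1 at 16.6 ± 7.31. Tap1 at 7.42 ± 2.18, H2-DMa at 2.48 ± 0.978 and Ciita at 1.23 ± 0.729 were the lowest. This order is that of the means over all groups, and in the control group Tap1 (7.28) averaged above H2-Ab1 (6.81) and H2-Eb1 (6.19). Neighbours from Cd74 to H2-Ab1 lay within the spread of each other, whereas the 3 class I surface genes lay apart by more than their SD. B2m was above H2-K1 and H2-K1 above H2-D1 in each of the 12 livers.

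The promoters of class II genes are known for an X box and a Y box, on which RFX, CREB and NF-Y assemble and recruit Ciita, and class I promoters carry related boxes. Promoters were matched by symbol to RefSeq (build GRCm38.p6) for 7 of the 10 genes. H2-Ab1, Cd74 and Ciita had no entry. The 250 bases before each start were searched on both strands for GATTGG (the Y or CCAAT box), TGACG (the X2 box or CRE core), GAAA repeated with 2 bases between (an interferon-stimulated response element) and TTCNNNGAA (a STAT site). Of 32851 promoters, 14.6% held GATTGG, 17.8% TGACG, 2.98% the response element and 7.02% the STAT site, and 3.11% held both GATTGG and TGACG. Both were found in H2-Aa, B2m, H2-D1, Tap1 and 1 of the H2-K1 starts. H2-Eb1 held GATTGG at 2 places and no TGACG, H2-DMa held GATTGG at 1 of its 2 starts, the response element was found in B2m alone, and the STAT site in none of the 7. A match of letters is a description and shows no binding. Bases -160 to -41 from the start are shown for 2 class II genes and 2 class I genes. These were chosen since H2-Aa and H2-Eb1 passed the test of model against control that follows, and H2-K1 and B2m did not. GATTGG and TGACG of either strand are in capitals, and in H2-Aa the TGACG matches of both strands overlap. The other GATTGG of H2-Eb1 and that of H2-K1 lie nearer the start than the bases shown. In the annotation the H2-Aa (chr17:34287864-34287983, minus strand) and H2-K1 (chr17:34000374-34000493, minus strand) bases lie outside every transcript. The H2-Eb1 bases (chr17:34305707-34305826, plus strand) reach into an exon of the antisense gene Gm20513, and the B2m bases (chr2:122147527-122147646, plus strand) lie in an intron of Patl2. Among the genes not shown, the same bases of H2-D1 reach into an exon of H2-D1 and those of Tap1 into an exon of Psmb9. The 2 H2-DMa starts (34122832 and 34125518) lie before both deposited H2-DMa transcripts, which begin at 34135182 and 34137028.
H2-Aa: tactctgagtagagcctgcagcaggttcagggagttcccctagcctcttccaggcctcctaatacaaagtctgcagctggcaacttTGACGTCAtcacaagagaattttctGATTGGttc
H2-Eb1: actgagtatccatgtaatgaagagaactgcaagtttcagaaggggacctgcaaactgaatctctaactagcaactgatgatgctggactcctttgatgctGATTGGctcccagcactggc
H2-K1: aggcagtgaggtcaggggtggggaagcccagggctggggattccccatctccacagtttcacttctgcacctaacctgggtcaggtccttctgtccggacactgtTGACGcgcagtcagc
B2m: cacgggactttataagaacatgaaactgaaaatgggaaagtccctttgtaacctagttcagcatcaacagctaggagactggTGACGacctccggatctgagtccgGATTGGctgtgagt

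The comparison of the model group with the control group asks how CCl4 fibrosis went with the level of these genes. The class II chains, their chaperone and their coactivator were higher in every model liver than in every control liver, and the class I genes were not. H2-Aa, the alpha chain of the I-A molecule, was at 7.04, 12 and 7.49 FPKM in control livers 1 to 3 and at 25.1, 32.4 and 25.8 in model livers 1 to 3. H2-Ab1, the beta chain of I-A, was at 5.81, 8.38 and 6.24 in control livers and at 19.2, 25.9 and 19.7 in model livers. H2-Eb1, the beta chain of the I-E molecule, was at 5.33, 8.18 and 5.05 in control livers and at 23.6, 25.9 and 20.9 in model livers. In all 3 genes control liver 2 was the highest control, and it lay below the lowest model liver. Cd74, the invariant chain that holds the peptide groove of new class II molecules and guides them to the endosome, was at 12.2, 16.7 and 14.3 FPKM in control livers and at 33.5, 62.7 and 42.4 in model livers. Ciita, the coactivator without which class II genes are hardly transcribed, was at 0.173, 0.288 and 0.210 in control livers and at 1.87, 1.51 and 1.09 in model livers. Their groups did not overlap either.

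H2-Aa averaged 8.83 ± 2.71 FPKM in control livers and 27.8 ± 4.04 in model livers (SD, n = 3), a ratio of 3.15. The ratio was 3.17 for H2-Ab1, 3.79 for H2-Eb1, 3.20 for Cd74 and 6.66 for Ciita. A gene was called differentially expressed (DE) where the adjusted p-value of limma was under 0.05 and the log2 fold change was larger than 1 in either direction. Folds are on the log2(FPKM + 1) scale, which makes the change of a low gene such as Ciita look smaller. H2-Eb1 rose by 1.79 ± 0.22 (SE; 95% interval 1.3 to 2.27; adjusted p = 0.000316 in limma). H2-Aa rose by 1.57 ± 0.26 (1.00 to 2.15; limma adjusted p = 0.00143), H2-Ab1 by 1.53 ± 0.27 (0.94 to 2.13; limma adjusted p = 0.00189) and Cd74 by 1.57 ± 0.28 (0.96 to 2.19; limma adjusted p = 0.00202). Ciita rose by 1.01 ± 0.21 (0.56 to 1.47; limma adjusted p = 0.00417). Of the 10 genes, 5 were thus DE and higher, where 9.42% of all 13158 genes tested were. The same 5 were higher without overlap, which held for 45.1% of all genes. Ciita passed the filter on low values (a mean of 0.5 FPKM) only through the livers given CCl4, and without it the count is 4.

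The deposited scale itself shifted between these groups. The median log2 fold change of all genes tested was 0.34, and 1240 genes were DE and higher against 142 lower. After scaling by median ratios, the median was 0.03 and the split 543 to 422. Relative to the median of all genes, H2-Aa was higher by 1.24, H2-Ab1 by 1.2, H2-Eb1 by 1.45, Cd74 by 1.24 and Ciita by 0.68. Under median ratios Ciita had a log2 fold change of 0.85 and was no longer past the fold cutoff, and it also missed it without control liver 1 (0.98) or model liver 1 (0.91). Coding transcripts alone gave 0.61 for Ciita (limma adjusted p = 0.0461), again without a call. In bulk liver RNA, more cells that carry class II and more class II RNA per cell cannot be told apart.

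**Figure D1:**
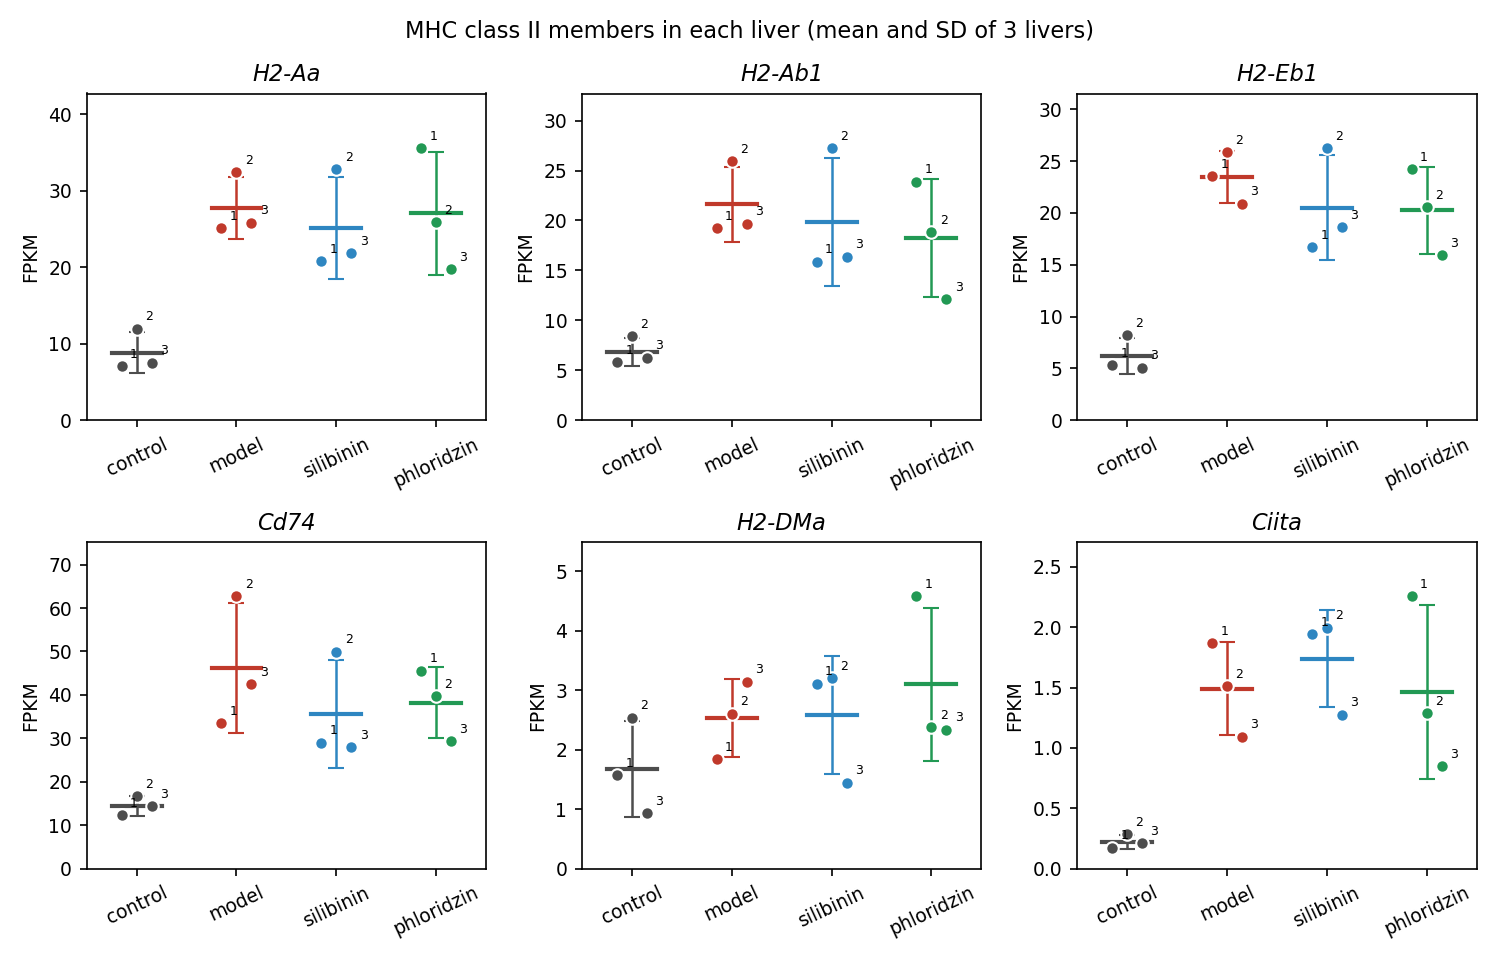
FPKM of 6 class II pathway genes in each of the 12 livers, with a point for each liver (numbered by replicate), a bar for the mean and a whisker for the SD of 3 livers. All control livers lie below all CCl4 livers in every gene but H2-DMa, and the 3 groups given CCl4 overlap.

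H2-DMa, a chain of the H2-M molecule that swaps peptides on class II, did not pass the test. It was at 1.57, 2.54 and 0.932 FPKM in control livers and at 1.85, 2.61 and 3.14 in model livers, and the groups overlapped. Its log2 fold change was 0.42 (95% interval -0.24 to 1.09; limma adjusted p = 0.293), and 0.15 under median ratios. Its partner chain H2-DMb1 rose from 1.23 ± 0.105 to 3.63 ± 0.758 FPKM (log2 fold change 1.04, limma adjusted p = 0.0146). This call was lost under median ratios (0.76) and without model liver 3 (limma adjusted p = 0.0523, where all settings ran from 0.00469 to 0.0523).

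No class I gene passed the test, and 0 of the 4 had an unadjusted p under 0.05 in limma, where 45.8% of all genes did. H2-K1, a classical class I heavy chain, was at 382, 474 and 307 FPKM in control livers and at 370.3, 415 and 358 in model livers. B2m, the light chain shared by all class I molecules, was at 466, 666 and 808 in control livers and at 521, 746 and 606 in model livers. Tap1, a subunit of the transporter that brings peptides into the endoplasmic reticulum, was at 6.10, 9.70 and 6.05 in control livers and at 6.98, 6.93 and 5.46 in model livers. The groups overlapped in all 3 genes. The log2 fold changes were -0.01 for H2-K1 (95% interval -0.41 to 0.40), -0.03 for B2m (-0.54 to 0.48) and -0.13 for Tap1 (-0.68 to 0.42), with limma adjusted p-values of 0.982, 0.932 and 0.713. Relative to the median of all genes they stood at -0.34, -0.37 and -0.47, and median ratios gave -0.43, -0.45 and -0.50 without a call. The top transcript of Tap1 gave -0.92 (limma adjusted p = 0.492) and its coding transcripts alone -0.40.

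H2-D1, the other classical heavy chain measured, varied more within groups than between them. It was at 65.4, 174 and 142 FPKM in control livers, 103, 209 and 89.9 in model livers, 83.4, 81.6 and 179.7 in silibinin livers and 119, 97.4 and 205 in phloridzin livers. Every group held a liver more than 2 times as high as another. The log2 fold change of model against control was 0.09 with an interval from -0.95 to 1.13 (limma adjusted p = 0.902), and it turned to -0.34 under median ratios. Most of the H2-D1 value came from 1 transcript, which ranged from 55.3 to 191 FPKM. Heavy chain genes are near copies: 14.3% of the 50-base stretches of this H2-D1 transcript also occur in transcripts of other genes, as do 8.79% of those of H2-K1. Their values are uncertain where fragments could be split between copies. The share was 0.975% for Tap1 and 0 for the other 7 genes.

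**Figure D2:**
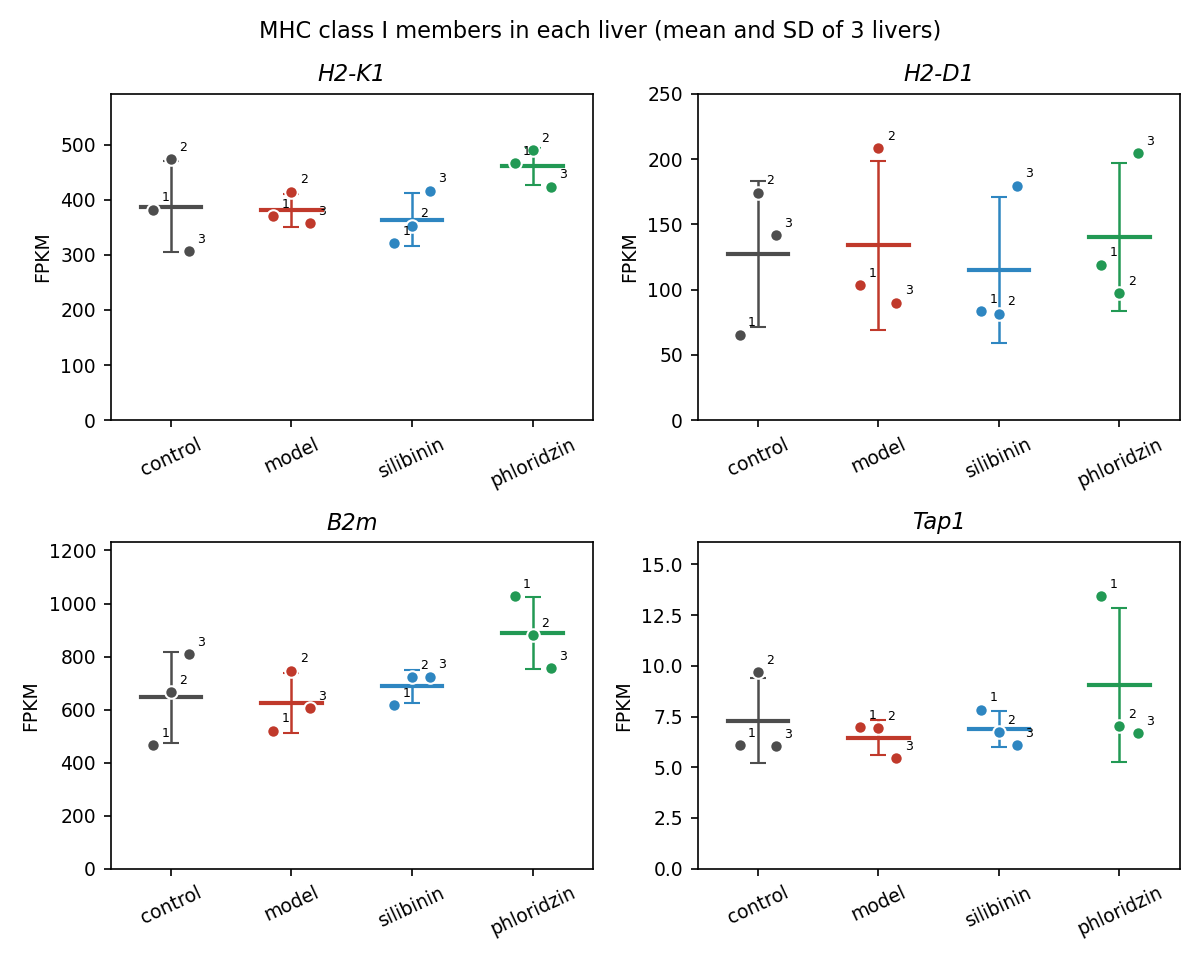
FPKM of 4 class I pathway genes in each of the 12 livers, with a point for each liver (numbered by replicate), a bar for the mean and a whisker for the SD of 3 livers. The control and model groups overlap in every gene, and the phloridzin livers lie above all model livers in H2-K1 and B2m.

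The comparisons of each drug group with the model group ask whether the genes differed after treatment, and they share the model livers. H2-Aa was at 20.7, 32.8 and 21.8 FPKM in silibinin livers and at 35.6, 25.8 and 19.7 in phloridzin livers. Cd74 was at 29.0, 49.97 and 27.9 in silibinin livers and at 45.6, 39.7 and 29.4 in phloridzin livers. Ciita was at 1.94, 2.00 and 1.27 in silibinin livers and at 2.25, 1.29 and 0.851 in phloridzin livers. Each of these groups overlapped the model group. The same held for H2-Ab1, which spanned 15.9 to 27.3 FPKM in silibinin livers and 12.1 to 23.9 in phloridzin livers, and for H2-Eb1 with 16.7 to 26.3 and 15.9 to 24.3.

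In silibinin against model, limma called 0 of the 10 genes DE, where 4% of all genes were, and 0 of the 10 had an unadjusted p under 0.05, where 29.2% of all genes did. Log2 fold changes were -0.16 for H2-Aa (95% interval -0.73 to 0.41), -0.15 for H2-Ab1 (-0.74 to 0.44), -0.20 for H2-Eb1 (-0.69 to 0.28), -0.37 for Cd74 (-0.98 to 0.25) and 0.14 for Ciita (-0.32 to 0.59). The median of all genes was -0.15, and median ratios turned H2-Aa and H2-Ab1 to 0.05 and 0.06. In phloridzin against model, limma called 0 of the 10 DE, where 3.52% of all genes were, and 0 at an unadjusted p under 0.05, where 27.8% were. Log2 fold changes were -0.07 for H2-Aa (-0.64 to 0.51), -0.27 for H2-Ab1 (-0.86 to 0.33), -0.22 for H2-Eb1 (-0.70 to 0.27), -0.24 for Cd74 (-0.86 to 0.37) and -0.04 for Ciita (-0.50 to 0.41). The median of all genes was -0.11, and median ratios turned H2-Aa to 0.11 and Ciita to 0.05. Without phloridzin liver 1, the highest phloridzin liver in all 5 genes, these values were -0.28, -0.48, -0.35, -0.38 and -0.26. None was called, with limma adjusted p-values between 0.273 and 0.508. The overlap of H2-Ab1 and H2-Eb1 with the model group rested on this liver, and without it both lay lower than all model livers, as did 36.4% of all genes. The lower bounds of the intervals, from -0.98 for Cd74 to -0.32 for Ciita in the silibinin group, show the size of the falls that 3 livers a group leave possible.

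**Figure D3:**
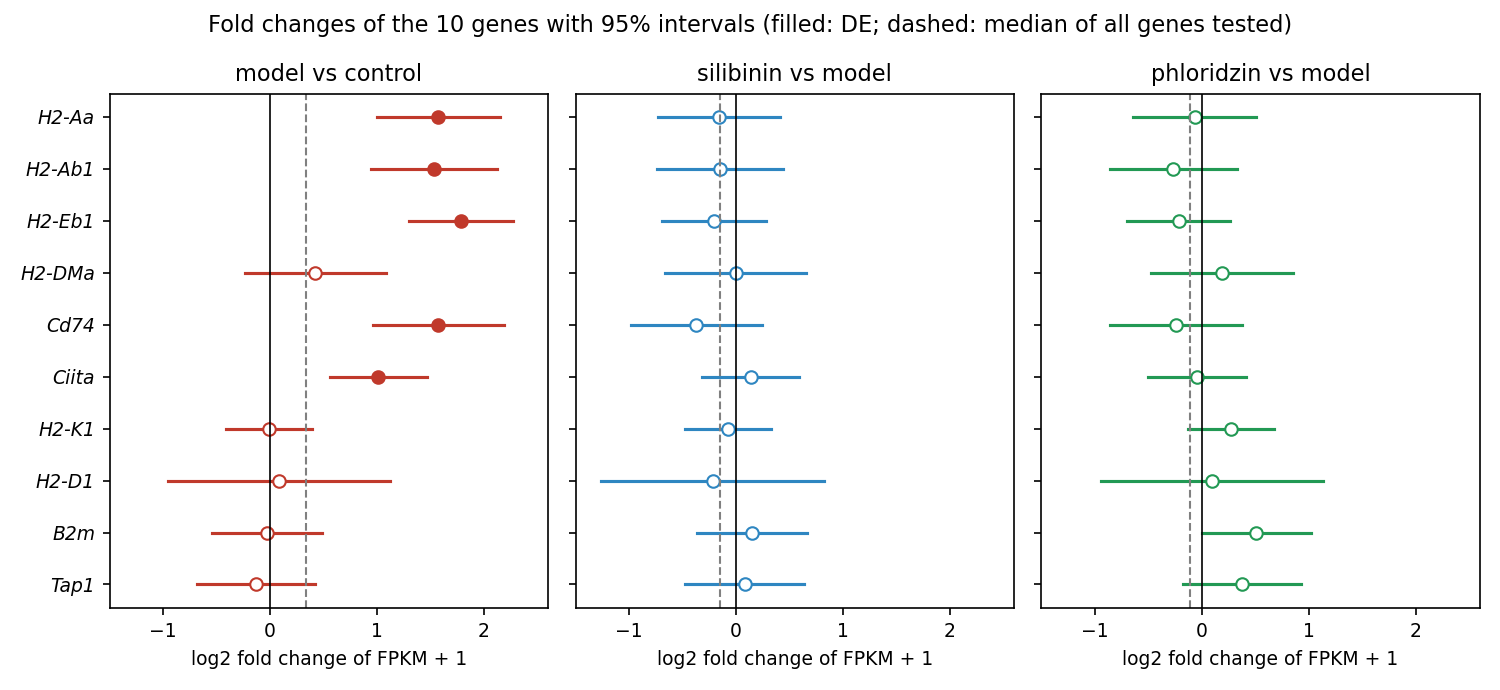
Log2 fold change of FPKM + 1 of the 10 genes (points) with 95% intervals (lines) in model against control, silibinin against model and phloridzin against model. Filled points are DE, the dashed line is the median of all genes tested, and the intervals of both drug comparisons reach 0 in every gene.

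B2m and H2-K1 were higher in every phloridzin liver than in the other livers given CCl4, without passing the test. B2m was at 1027, 879 and 756 FPKM in phloridzin livers, above all model livers and all silibinin livers (617, 721 and 724). H2-K1 was at 467, 491 and 424 in phloridzin livers, above all model livers and all silibinin livers (322, 353 and 417). Both genes overlapped the control livers. The mean was 1.42 times that of the model group for B2m and 1.21 times for H2-K1. These 2 of 10 genes lay above the model group without overlap, where 8.21% of all genes did, and above the silibinin group, where 5.19% did. In limma the log2 fold change against model was 0.51 for B2m (95% interval -0.00238 to 1.02; adjusted p = 0.182) and 0.27 for H2-K1 (-0.13 to 0.68; adjusted p = 0.369). Without phloridzin liver 1 they were 0.40 and 0.26. Over all alternatives they ran from 0.39 to 0.69 for B2m and from 0.23 to 0.45 for H2-K1, without a call. Tap1 was at 13.4, 7.04 and 6.67 in phloridzin livers and at 7.83, 6.71 and 6.10 in silibinin livers. Its log2 fold change against model was 0.37 (-0.18 to 0.93; limma adjusted p = 0.371), and 0.08 without phloridzin liver 1, which alone stood out. The top transcript of Tap1 gave 1.53 (limma adjusted p = 0.349) and its coding transcripts alone 0.71, neither called.

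The direct comparison of the drugs asks whether phloridzin livers differed from silibinin livers. Limma called 0 of the 10 genes DE, where 0.0228% of all genes were, and 0 at an unadjusted p under 0.05, where 3.75% were. The log2 fold change was 0.36 for B2m (95% interval -0.15 to 0.87) and 0.35 for H2-K1 (-0.06 to 0.75), with an adjusted p of 1 in limma for both.

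Both drug groups were also set against the control group, and these comparisons share the control livers. All 3 livers of each drug group lay above all control livers in H2-Aa, H2-Ab1, H2-Eb1, Cd74 and Ciita, where 26.4% of all genes lay higher without overlap in the silibinin group and 26.8% in the phloridzin group. In silibinin against control, 5 of the 10 genes were DE and higher, where 1.74% of all genes were, and the count is 4 without Ciita, which passed the filter only through the livers given CCl4. The log2 fold changes were 1.58 for H2-Eb1, 1.41 for H2-Aa, 1.39 for H2-Ab1, 1.21 for Cd74 and 1.15 for Ciita, with limma adjusted p-values from 0.0062 to 0.0356. In phloridzin against control, 4 of the 10 were DE and higher, where 2.74% of all genes were. The log2 fold changes were 1.57 for H2-Eb1, 1.51 for H2-Aa, 1.33 for Cd74 and 1.27 for H2-Ab1, with limma adjusted p-values from 0.00582 to 0.0203, and Ciita stood at 0.97 (adjusted p = 0.0209), short of the fold cutoff, which it passed with pseudocounts of 0.5 (1.38) and 0.1 (2.19). These counts rested on single livers and on the settings. In silibinin against control the count was 1 without control liver 1 or silibinin liver 2, and 2 without control liver 3 or silibinin liver 1. In phloridzin against control it was 2 without control liver 1, control liver 3 or phloridzin liver 1, and 3 without phloridzin liver 2. H2-Eb1 stayed DE with each of these livers left out, with log2 fold changes from 1.40 to 1.71. In silibinin against control the call of Cd74 also ended under median ratios (1.01, limma adjusted p = 0.0566), with no filter (limma adjusted p = 0.0614) and with the top transcript (limma adjusted p = 0.137), and that of Ciita with coding transcripts alone (0.84, limma adjusted p = 0.0501). In phloridzin against control that of Cd74 ended with the top transcript (limma adjusted p = 0.0539), and those of H2-Aa and H2-Ab1 with only the compared groups in the fit (limma adjusted p = 0.0561 and 0.069).

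H2-Aa, H2-Ab1, H2-Eb1 and Cd74 kept close to each other from liver to liver, and Ciita and H2-DMa less so. Control liver 2, silibinin liver 2 and phloridzin liver 1 were the highest of their group in each of H2-Aa, H2-Ab1, H2-Eb1, Cd74 and Ciita, and model liver 2 was the highest in all but Ciita. The ratio of H2-Ab1 to H2-Aa lay between 0.616 and 0.833 over the 12 livers and that of H2-Eb1 to H2-Aa between 0.674 and 0.939. The ratio of Cd74 to H2-Aa lay between 1.281 and 1.93. Among 11610 other genes with a mean of at least 1 FPKM, those most like H2-Aa in mean absolute difference of centred log2 values over the 12 livers were H2-Eb1 (0.09), H2-Ab1 (0.09), Cd74 (0.15), Tnfaip8 (0.16) and Sgce (0.16). Ciita (0.27) came at rank 112 and H2-DMa (0.42) at rank 1529. Tnfaip8 averaged 1.62 FPKM in the control group and 5.56, 4.51 and 4.96 in the model, silibinin and phloridzin groups, and Sgce 1.98, 6.72, 7.71 and 6.97. Those most like Tap1 were Ifih1 (0.11), Parp12 (0.13), Parp10 (0.13), Abhd4 (0.13) and Trim21 (0.13). Ifih1, a sensor of viral RNA, was at 20.2 FPKM in phloridzin liver 1 and at 8.14 to 11.9 elsewhere.

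Ciita transcripts begin at 3 places, and the gene is known to be read from several promoters that different cell types use. The first place, at 10480059 to 10480164 of chromosome 16, gave 0.158, 1.04, 0.610 and 0.479 FPKM on average in the control, model, silibinin and phloridzin groups. The second, at 10488178 to 10488279, gave 0, 0.0147 and 0 FPKM in control livers, 0.0158, 0.159 and 0.0212 in model livers, 0.398, 0.982 and 0.642 in silibinin livers and 1.13, 0.579 and 0.124 in phloridzin livers. All silibinin livers and 2 of the 3 phloridzin livers lay above all model livers there. In silibinin livers 2 and 3 and phloridzin livers 1 and 2, most of this was 1 coding transcript, listed at 0 in all other livers. A coding transcript of the first place was at 0.00429 to 0.0185 FPKM in those livers. It was at 0 to 0.205 in control livers and 0.325 to 0.663 in model livers, and at 0.679 in silibinin liver 1. The value of silibinin liver 1 at the second place came from a processed transcript. The third, at 10489746 to 10489783, gave 0.0610, 0.387, 0.454 and 0.374 on average. These sums and transcripts were looked at after the gene values were known and were not tested. The split of a gene between transcripts is less certain than its sum. The most abundant Tap1 transcript, for example, was listed at 0 in 5 livers while the gene was not.

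**Figure D4:**
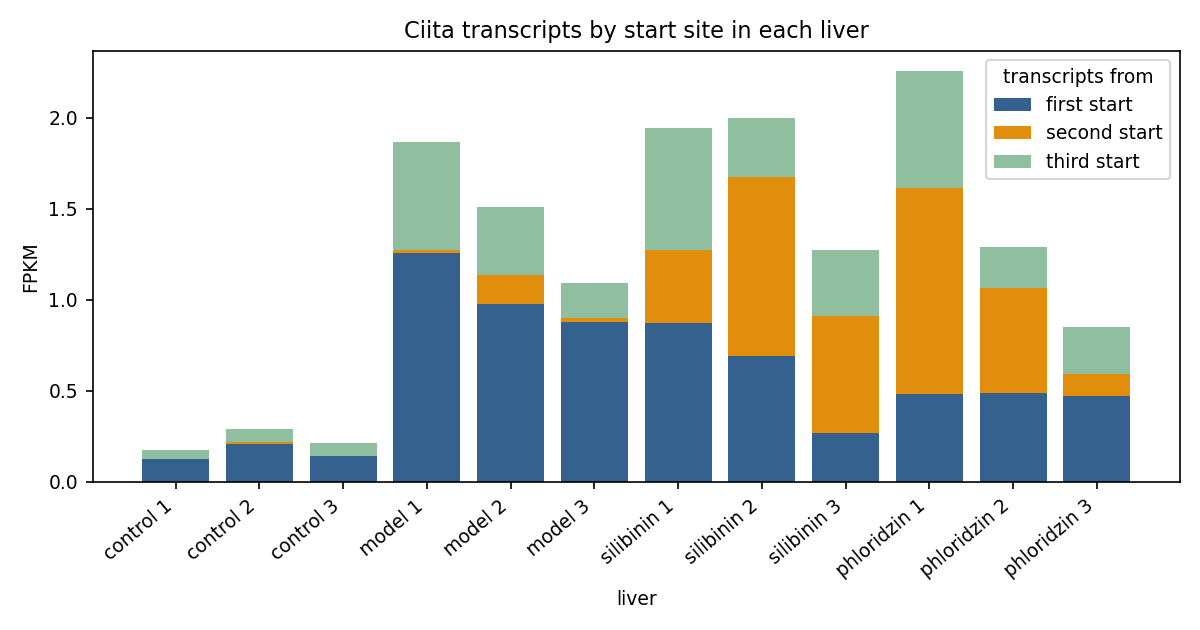
FPKM of Ciita in each of the 12 livers, stacked by the place where the transcripts begin. The second place takes up little of the bars of control and model livers and more of those of silibinin livers and of phloridzin livers 1 and 2.

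Other genes of the pathways were taken from lists. In model against control, where 9.42% of all genes were DE and higher, 6 of 9 class II genes tested were (median log2 fold change 1.04, all genes 0.34), the 5 above and H2-DMb1. This count and median include Ciita, which was DE, and H2-DMb2, which was not. Both passed the filter only through the livers given CCl4, with control means of 0.224 and 0.476 FPKM. H2-Eb2 and H2-Oa were under the filter, and H2-Ea and H2-Ea-ps were not analysed here. Of 7 lysosomal enzymes that prepare class II peptides, 3 were DE and higher (median 0.75), beside 9.42% of all genes. Ctss, the protease that trims Cd74, rose from 34.8 ± 8.19 to 101 ± 28.2 FPKM, a log2 fold change of 1.5 (limma adjusted p = 0.0205). Ctsd changed by 1.13 (limma adjusted p = 0.0384) and Lgmn by 1.02 (limma adjusted p = 0.00488). Control and model livers overlapped in Ctsd. None of these 3 calls held under median ratios (1.08, 0.71 and 0.60), nor with every liver left out in turn. Ctss lost its call without control liver 1, control liver 3, model liver 2 or model liver 3, Lgmn without control liver 1 or model liver 2, and Ctsd without any of control livers 1 and 3 and model livers 1 and 2. Ctsd also lost it with no filter (limma adjusted p = 0.0652) and with only the compared groups in the fit (limma adjusted p = 0.0877). The top transcript ended the calls of Ctsd and Ctss (limma adjusted p = 0.161 and 0.346), and coding transcripts alone that of Ctsd (limma adjusted p = 0.0649). Ifi30, the lysosomal reductase, was DE in phloridzin against control alone (1.12, limma adjusted p = 0.0192), and not without phloridzin liver 1 (0.97, limma adjusted p = 0.0604), phloridzin liver 2, control liver 1 or control liver 2, under median ratios (0.90) or with only the compared groups in the fit (limma adjusted p = 0.056). In limma 0 of 7 factors of the class II promoters, among them Rfx5 and Nfya, were DE (median 0.43), and 4 had an unadjusted p under 0.05, near the 45.8% of all genes that did.

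On the class I side, 0 of 3 classical genes (median -0.01), 0 of 8 genes of the peptide loading complex (median 0.46) and 0 of 5 immunoproteasome genes (median -0.19) were DE in model against control in limma. At an unadjusted p under 0.05 these counts were 0, 4 and 0, beside 45.8% of all genes. Of 13 non-classical genes tested, H2-Q1 alone was DE and higher (median 0.33), beside 9.42% of all genes. Like Ciita, it passed the filter on low values only through the livers given CCl4, which bears on all its calls against the control group. It went from 0.430 ± 0.210 to 2.45 ± 0.251 FPKM, a log2 fold change of 1.279 (limma adjusted p = 0.00439), which was 0.84 in its top transcript and 0.92 in coding transcripts alone, neither DE. Under median ratios Cd1d1 was DE and lower, and the medians of these 4 lists were -0.43, 0.06, -0.57 and 0.11. Tap2, the other subunit of the transporter, averaged 6.26 ± 0.261, 7.09 ± 0.865, 7.18 ± 0.955 and 8.06 ± 2.61 FPKM in the control, model, silibinin and phloridzin groups. Tapbp (tapasin) averaged 3.93 ± 0.152, 6.73 ± 3.88, 4.61 ± 0.936 and 5.82 ± 1.3. Psmb8 averaged 9.57 ± 0.900, 8.30 ± 1.10, 7.65 ± 1.80 and 13 ± 4.47, and Psmb9 1.27 ± 0.541, 1.37 ± 0.397, 1.13 ± 0.246 and 1.5 ± 0.874. Tap2, Tapbp, Psmb8 and Psmb9 were DE in none of the 6 comparisons.

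Calr (calreticulin) and Pdia3, which fold class I heavy chains and many other glycoproteins, were the pathway genes DE and lower in both drug groups against the model group. Of all genes, 3.25% were DE and lower there with silibinin and 2.92% with phloridzin. Calr was at 131, 208 and 177 FPKM in model livers, 35.0, 25.1 and 17.5 in silibinin livers and 24.2, 24.4 and 41.4 in phloridzin livers. Pdia3 was at 183, 253 and 210.2 in model livers, 88.8, 86.9 and 77.8 in silibinin livers and 97.9, 74.4 and 77.2 in phloridzin livers. Neither drug group overlapped the model group in these genes, and 27.8% of all genes were lower without overlap in silibinin against model and 22.4% in phloridzin against model. Other pathway genes were also lower without overlap in both drug groups, such as Ifngr1, which was not DE there. Calr fell by 2.71 with silibinin and 2.5 with phloridzin on the log2 scale (limma adjusted p = 0.000455 and 0.000824), and Pdia3 fell by 1.33 and 1.36 (limma adjusted p = 0.000621 and 0.000548).

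Of 9 interferon-gamma axis genes tested, 2 were DE and higher in the model group (median 0.56), beside 9.42% of all genes. Ifngr1, a receptor chain, changed by 1.63 (limma adjusted p = 0.00012) and Irf8, a transcription factor of myeloid cells and B cells, by 1.41 (limma adjusted p = 0.000408), whose top transcript alone gave -0.0379. Ifng itself lay between 0 and 0.164 FPKM in all 12 livers. Nlrc5 averaged 7.0 ± 0.213, 11.3 ± 4.24, 7.16 ± 0.838 and 8.36 ± 2.14 in the control, model, silibinin and phloridzin groups, and Irf1 13.1 ± 1.76, 14.8 ± 1.15, 16.4 ± 1.19 and 15.6 ± 1.14. Nlrc5 and Irf1 were DE in none of the 6 comparisons. Of 6 co-stimulation genes tested, 2 were DE and higher in the model group (median 0.80), Cd83 by 1.82 (limma adjusted p = 0.000679) and Cd86 by 1.3 (limma adjusted p = 0.000574). Cd83, at a mean of 0.309 FPKM in control livers, passed the filter only through the livers given CCl4. So did some genes of this list that were not DE. Cd83 fell by 1.09 in phloridzin against model (limma adjusted p = 0.0219), and the call was lost with the top transcript or coding transcripts alone (-0.58 in both, limma adjusted p = 0.378 and 0.347), with only the compared groups in the fit (limma adjusted p = 0.0867), under median ratios (-0.94) and without model liver 2 (-0.95), model liver 3 (-0.92), phloridzin liver 2 (-1.07) or phloridzin liver 3 (-0.98). No other pathway list gene was DE in either drug group against the model group, and none was between the drugs.

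Against the control group, 3 pathway list genes outside the class II genes were DE and higher in both drug groups. Of all genes, 1.74% were DE and higher with silibinin and 2.74% with phloridzin. A further 1 pathway list gene was DE and lower in both, where 0.243% and 0.289% of all genes were. In the silibinin and the phloridzin group, the log2 fold changes were 1.09 and 1.18 for Irf8, 1.66 and 1.22 for H2-Q1, 1.70 and 1.64 for Ctsd and -1.73 and -1.52 for Calr, with limma adjusted p-values from 0.00636 to 0.0303. With single livers left out, H2-Q1 in the silibinin group and Irf8 in the phloridzin group alone were always DE. In the silibinin group the call of Ctsd was lost without control liver 1, control liver 3, silibinin liver 1 or silibinin liver 2, and those of Calr and Irf8 without control liver 3 or silibinin liver 2. In the phloridzin group Ctsd lost its call without control liver 1, control liver 3, phloridzin liver 1 or phloridzin liver 2. There Calr lost it without control liver 3, phloridzin liver 1 or phloridzin liver 2, and H2-Q1 without control liver 1, control liver 3 or phloridzin liver 2. The largest adjusted p among these was 0.126. Under the other alternatives every call of these 4 genes but that of Calr in the silibinin group was lost at least once. H2-Q1 in the silibinin group lost it with the top transcript (limma adjusted p = 0.0622) and was 1.03 with coding transcripts alone. In the silibinin and the phloridzin group Irf8 lost it under median ratios (0.93 and 0.99), with the top transcript (0.49 and 1.46, limma adjusted p = 0.775 and 0.247) and with coding transcripts alone (limma adjusted p = 0.179 and 0.0735), and in the phloridzin group also with only the compared groups in the fit (limma adjusted p = 0.0509).

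Markers of cells that carry class II were measured beside these genes. Macrophage and Kupffer cell markers (8 genes, Cd5l the most abundant, none at 0) summed to 111, 181 and 141 FPKM in control livers and 170.0, 307 and 215 in model livers. They summed to 174, 241 and 236 in silibinin livers and 349.6, 361 and 211 in phloridzin livers. In limma 0 of the 8 were DE in model against control (median 0.62), and 5 had an unadjusted p under 0.05, as had 45.8% of all genes. Adgre1, Cd5l and Marco were DE and higher in phloridzin against control, where 2.74% of all genes were, and not under median ratios. Monocyte markers (4 genes, Plac8 the most abundant, none at 0) summed to 8.11, 10.8 and 8.26 in control livers and 25, 39.3 and 30.2 in model livers, 21.3, 21.2 and 18.8 in silibinin livers and 58.4, 32.4 and 22 in phloridzin livers. Ccr2, Chil3 and Plac8 of the 4 were DE and higher in model against control (median 1.32), beside 9.42% of all genes, Plac8 not under median ratios.

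B cell markers (6 genes, Ighm the most abundant, none at 0) summed to 1.12, 2.35 and 2.605 FPKM in control livers and 8.66, 11.0 and 4.77 in model livers, 5.75, 12 and 4.01 in silibinin livers and 6.37, 4.58 and 4.46 in phloridzin livers. In limma 0 of 4 tested were DE in model against control, and 3 had an unadjusted p under 0.05, as had 45.8% of all genes. Dendritic cell markers (8 genes, Zbtb46 the most abundant) summed to 3.81, 3.13 and 3.11 in control livers and 8.96, 7.44 and 8.76 in model livers, 6.80, 7.59 and 5.504 in silibinin livers and 7.71, 6.24 and 5.11 in phloridzin livers. Clec9a and Cd209a were at 0 in some livers, and 6 of the 8 were under the filter. Of the other 2, Itgax was DE and higher in model against control, beside 9.42% of all genes. Itgax, at a mean of 0.176 FPKM in control livers, passed the filter only through the livers given CCl4. Control livers were the lowest in each of these lists, except that control liver 2 lay above model liver 1 and silibinin liver 1 in the macrophage list. Against control, the monocyte and dendritic cell genes DE and higher were Ccr2, Chil3 and Itgax with silibinin and Chil3, Plac8 and Itgax with phloridzin, where 1.74% and 2.74% of all genes were, and Chil3 lost its call with silibinin under median ratios. The part of these cells in the class II change was not tested.

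**Figure D5:**
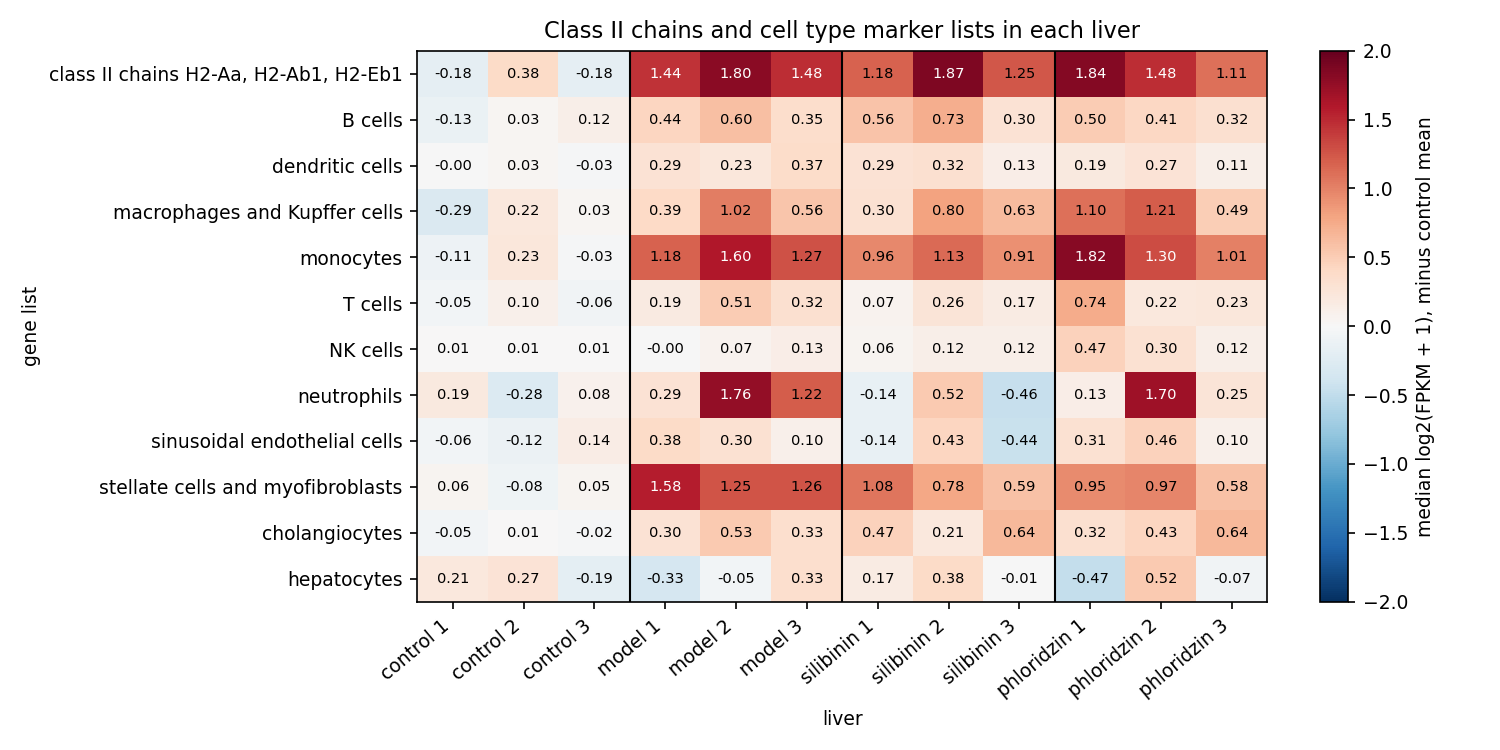
Median over the genes of a list of log2(FPKM + 1) minus the control mean, for the class II chains and 11 lists of cell type markers (vertical) in each of the 12 livers (horizontal). The class II chains lie between 1.11 and 1.87 in all livers given CCl4, and 6 of the 11 lists (B cells, dendritic cells, macrophages, monocytes, stellate cells and cholangiocytes) are also above all control livers there.

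T cell markers (6 genes, Cd3e the most abundant, Cd8b1 at 0 in some livers) summed to 1.32 to 2.03 FPKM in control livers, 2.40 to 4.19 in model livers, 1.71 to 2.96 in silibinin livers and 2.74 to 6.95 in phloridzin livers. NK cell markers (4 genes, Gzma the most abundant, none at 0) summed to 0.603 to 0.876, 0.715 to 1.79, 1.06 to 2.29 and 1.09 to 3.69. Sinusoidal endothelial markers (6 genes, Clec4g the most abundant, none at 0) summed to 68.0 to 76.0, 74.3 to 87.4, 43.1 to 84.8 and 71.5 to 88.6. In model against control, limma called 0 of 2 T cell genes, 0 of 1 NK cell gene and 0 of 6 endothelial genes tested, and 0, 0 and 1 had an unadjusted p under 0.05, where 45.8% of all genes did. The phloridzin livers highest in T cell markers and in NK cell markers were liver 1 and liver 2.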

How the data were processed

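The authors sequenced total RNA on the Illumina NovaSeq platform. The submitters' processing notes name FastQC 0.11.5, HISAT2 2.1.0, StringTie 1.3.3b and DESeq 1.28.0 and the build mm10. The deposited table gives FPKM of 169430 transcripts, which the authors scaled to transcript length and library size. The unit is not named there and was inferred: for transcripts over 1500 bases, 98.4% to 98.7% of the low values came to whole fragments within 0.05, and library sizes follow from the same step. FPKM were summed per symbol. Genes with a mean of at least 0.5 FPKM (13158) were fitted on log2(FPKM + 1) with limma 3.58.1 (trend in the variance, group means, all 12 livers, two-sided), with Benjamini-Hochberg adjustment over all genes tested in each of 6 comparisons. The fit was tested on simulated data. All 10 genes passed the filter. No 2 livers held the same values. Labels do not pair livers across groups.

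The 10 genes, the 9 pathway lists (75 of 78 genes matched) and the 11 marker lists (62 of 62) were chosen with earlier results of these data known. H2-L, H2-Ea and H2-Ea-ps were not analysed here. The genes named are the 10, list genes that were DE in any comparison and a fixed set of pathway genes, each marker list's most abundant gene and the 5 genes most like H2-Aa and Tap1. A gene of the fixed set is not reported here by itself, though the list counts and medians include it. Other marker genes, H2-T22, Cd1d1 and H2-DMb2 are named after their values were seen. Alternatives covered the filter, the pseudocount, median ratios over 11459 genes, a fit of only the compared groups, a block for the replicate number, the transcripts summed, the fold cutoff, the trend and each liver left out. Coding transcripts alone were added after the data were seen, since every transcript with a symbol is an Ensembl transcript. Of these, 98.1% of those found in GENCODE M21 have its GRCm38 position. Whether the counting used strand was not given in the sources used here. Other software was R 4.3.3 and Python 3.11.15 (matplotlib 3.10.9, pandas 2.3.3, numpy 2.4.6).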

Additional observations from a re-analysis of the deposited data

How the results depend on the processing

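The count of the 10 genes called in model against control was 4 or 5 under every alternative, and 0 in both drug comparisons with the model group and between the drugs. H2-Aa, H2-Ab1, H2-Eb1 and Cd74 were DE in model against control in every setting, with limma adjusted p-values of 0.000306 to 0.0095. With the top transcript alone, the count in silibinin against control was 3, where Ciita was under the filter and not tested and Cd74 lost its call. With only the compared groups in the fit, the count in phloridzin against control was 2; the cause was not tested. With single livers left out these counts ranged from 1 to 5 and from 2 to 5.

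Of the 58 fold changes printed, no value with a call changed sign except that of Irf8, which was -0.0379 in model against control with its top transcript alone. Among changes without a call, median ratios gave -0.34 for H2-D1 in model against control, 0.0466 and 0.0556 for H2-Aa and H2-Ab1 in silibinin against model, and 0.11 and 0.0535 for H2-Aa and Ciita in phloridzin against model. Coding transcripts alone gave 0.11 for Ciita in phloridzin against model. With single livers left out, model against control ranged from -0.33 to 0.37 for H2-D1, from -0.16 to 0.15 for H2-K1, from -0.25 to 0.15 for B2m and from -0.23 to 0.0694 for Tap1. Phloridzin against model ranged from -0.28 to 0.13 for H2-Aa and from -0.26 to 0.14 for Ciita. Over all 60 changes of the 10 genes, 26 changed sign under at least 1 alternative (58 of 1074 alternative values), none of them with an adjusted p under 0.05. Many of the 1074 values could not change sign. Alternatives of the filter, the fold cutoff, the trend, the groups in the fit and the replicate block leave a fold change as it is. So does a sum over Ensembl transcripts, as every transcript with a symbol is one. The causes were not tested.

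Median ratios moved the split of DE genes from 98 higher and 428 lower to 189 and 241 in silibinin against model, from 79 and 384 to 141 and 241 in phloridzin against model, from 229 and 32 to 160 and 51 in silibinin against control, and from 360 and 38 to 203 and 61 in phloridzin against control. Livers with the same number deviated from their group means with correlations of -0.09 to 0.10 over genes, so the numbers do not pair them. With the number as a replicate block, the counts were 5, 0, 0, 0, 5 and 4 as without it, and DE genes in model against control went from 1382 to 1363. With 3 livers a group, changes of Ciita rest on as few as 66 fragments in a control liver.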

Other observations

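Phloridzin liver 1 was the highest of the 12 livers in some pathway genes, picked after their values were seen, and not in others. H2-T22, a non-classical class I gene, was at 100.4 FPKM there and at 27.3 to 50.9 in the other livers, Tap2 at 11.1 against 6.09 to 8.07, and Psmb8 at 17.9 against 5.72 to 12.1. Irf1 was highest in silibinin liver 3 and Nlrc5 in model liver 1. H2-Q1 was at 1.07 FPKM in this liver and at 3.51 and 2.90 in phloridzin livers 2 and 3. No cause was tested.

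Markers of cells that make the scar and of other liver cells were measured in the same livers. Stellate cell and myofibroblast markers (6 genes, Col3a1 the most abundant, none at 0) summed to 11.1 to 15.7 FPKM in control livers, 111 to 145 in model livers, 55.2 to 141 in silibinin livers and 53.8 to 199 in phloridzin livers, and Col1a1, Col3a1 and Lrat were DE and higher in model against control, where 9.42% of all genes were. Col1a1 and Col3a1 were also DE and higher in both drug groups against control, where 1.74% of all genes were with silibinin and 2.74% with phloridzin. Phloridzin liver 1 was the highest of its group in both genes. It was at 85.06 FPKM in Col1a1 (group mean 41.40) and at 97.59 in Col3a1 (group mean 51.40). The other phloridzin livers also lay above all control livers in both genes. Neutrophil markers (4 genes, S100a8 the most abundant, S100a9 and Ly6g at 0 in some livers) summed to 7.62 to 21.8, 26.3 to 70.7, 8.93 to 25.5 and 21.7 to 80.3, and Retnlg of 3 tested was DE and higher in model against control, though not under median ratios. Retnlg was also DE and lower in silibinin against model, where 3.25% of all genes were, and again not under median ratios. Cholangiocyte markers (4 genes, Sox9 the most abundant, none at 0) summed to 1.76 to 2.98, 3.93 to 5.69, 3.76 to 7.03 and 4.74 to 7.38. None of 2 tested was DE in model against control, and Krt19 was DE and higher in phloridzin against control, where 2.74% of all genes were. Of the 6 hepatocyte markers, Cyp2e1 alone was DE and lower in model against control, where 1.08% of all genes were, with a mean of 2812 FPKM in control livers and 504 in model livers. It was also DE and lower in phloridzin against control, where 0.289% of all genes were.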
